A study of Mus musculus with 4 samples.

Results

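The genes of the enzymes that add methyl groups to histone lysines, and of those that remove them, were examined for ChIP-seq peaks of H1foo, the linker histone of the oocyte, and of AE4, a mouse monoclonal antibody to somatic linker histones. The set was defined by symbol as the autosomal protein-coding mouse genes beginning with Kdm, Kmt or Setd and a digit, and it held 31 of 20661 genes. There were 2 ChIP-seq libraries with a rabbit polyclonal H1foo antibody made in-house and 2 with AE4. All 4 came from 129S4/SvJae mouse embryonic stem cells, untreated and overexpressing H1foo as a GFP fusion, so no cells without that transgene were compared. The sources used here name neither the promoter of the transgene nor the number of clones, and peak lists do not allow the cell type to be checked against expressed markers.

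Lysine methylation of histone tails marks chromatin states. Methylation of H3 at K4 is found at active promoters and enhancers, at K36 along transcribed genes, and at K9, at K27 and on H4 at K20 in several forms of silent or compact chromatin. Kmt and Setd genes encode SET domain enzymes, most of which write such marks. Kdm genes encode erasers, which are amine oxidases in the Kdm1 family and iron-dependent JmjC domain oxygenases in the rest. Linker histones sit on the nucleosome where its DNA enters and exits, and H1foo is the form made in oocytes.

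The data were 1 deposited peak list per antibody, in mm10 coordinates, with 97617 autosomal peaks for H1foo and 47206 for AE4. A peak was assigned to a gene if it shared at least 1 bp with the gene or the 2 kb on either side. The lists hold no value per library and the depth is unknown, so no value below has a replicate error and no difference was tested. The sources used here do not say whether AE4 also binds H1foo, or whether peaks were called against an input. Scores are the authors' own value per peak and are used here to rank peaks within a list.

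The promoters that matter for what follows are the RefSeq windows (GRCm38.p6, from 250 bases before a start to 50 after it) that a peak overlapped, and those set beside them. Of the 23 genes with such an entry, only Kmt5a and Kdm4c had a peak on a window, in each case of H1foo and at a start inside the gene. For each of them an alternative start of the same gene without a peak is shown, and Kdm7a is shown as the member window with the most CG dinucleotides. Capitals mark CG dinucleotides, and all are written 5′ to 3′ on the strand of the gene.
Kmt5a, start at 124446704, overlapped by a peak, chr5:124446454-124446753, plus strand: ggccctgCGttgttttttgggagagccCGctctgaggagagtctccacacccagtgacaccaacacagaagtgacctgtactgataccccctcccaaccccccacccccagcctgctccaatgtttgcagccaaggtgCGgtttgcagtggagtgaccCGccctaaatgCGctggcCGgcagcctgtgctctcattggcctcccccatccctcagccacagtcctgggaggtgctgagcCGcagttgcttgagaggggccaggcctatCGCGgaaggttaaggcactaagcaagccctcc
Kmt5a, start at 124445499, no peak on it, chr5:124445249-124445548, plus strand: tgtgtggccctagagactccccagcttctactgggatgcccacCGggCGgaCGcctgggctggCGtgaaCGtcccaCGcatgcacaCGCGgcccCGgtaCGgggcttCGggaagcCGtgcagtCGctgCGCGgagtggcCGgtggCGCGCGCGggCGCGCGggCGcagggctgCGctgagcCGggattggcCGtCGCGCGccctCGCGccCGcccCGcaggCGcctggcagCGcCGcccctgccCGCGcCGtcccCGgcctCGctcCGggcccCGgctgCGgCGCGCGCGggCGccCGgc
Kdm4c, start at 74251879, overlapped by a peak, chr4:74251629-74251928, plus strand: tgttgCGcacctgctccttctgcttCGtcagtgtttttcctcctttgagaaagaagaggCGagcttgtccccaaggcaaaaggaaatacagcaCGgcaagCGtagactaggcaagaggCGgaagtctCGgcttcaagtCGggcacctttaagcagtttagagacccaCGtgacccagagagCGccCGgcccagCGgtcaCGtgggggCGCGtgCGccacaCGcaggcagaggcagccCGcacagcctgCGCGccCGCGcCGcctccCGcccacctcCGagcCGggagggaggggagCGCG
Kdm4c, start at 74242497, no peak on it, chr4:74242247-74242546, plus strand: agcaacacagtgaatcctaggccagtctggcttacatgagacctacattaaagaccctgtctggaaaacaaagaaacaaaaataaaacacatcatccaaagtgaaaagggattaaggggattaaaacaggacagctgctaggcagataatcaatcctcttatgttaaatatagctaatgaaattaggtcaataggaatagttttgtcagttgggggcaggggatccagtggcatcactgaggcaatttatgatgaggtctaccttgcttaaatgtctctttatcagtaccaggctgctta
Kdm7a, no peak on it, chr6:39206724-39207023, minus strand: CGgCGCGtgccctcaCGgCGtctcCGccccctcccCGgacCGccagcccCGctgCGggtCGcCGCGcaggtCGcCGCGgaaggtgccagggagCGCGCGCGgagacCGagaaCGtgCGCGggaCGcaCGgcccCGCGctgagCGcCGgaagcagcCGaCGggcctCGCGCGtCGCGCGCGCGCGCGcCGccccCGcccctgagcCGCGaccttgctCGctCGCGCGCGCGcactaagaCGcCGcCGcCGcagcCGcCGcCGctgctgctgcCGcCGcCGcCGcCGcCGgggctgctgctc

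These windows differed widely in base composition. The Kmt5a start at 124446704, which lies 6.77 kb inside the gene, has 9 CG dinucleotides, and the H1foo peak there (chr5:124446582-124447076, score 53.4) covered 172 of its 300 bases. The start at 124445499, with 51 CG, lay 403 bp from the nearest H1foo peak. Another Kmt5a start, at the gene boundary (124439930), is not shown. It has 18 CG and no peak on its window, and its nearest H1foo peak was 937 bp away. The Kdm4c start at 74251879, 9.38 kb inside the gene, has 28 CG and shared 144 bases with an H1foo peak of score 66.5 (chr4:74251191-74251772). The start at 74242497 has none, and its nearest H1foo peak was 1818 bp away. Kdm7a has 65 CG, a number that no autosomal protein-coding gene exceeded at the start nearest its boundary, and its nearest H1foo peak was 15783 bp away. Both peaks on windows had scores below the H1foo list's median of 73.2.

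Nearly all of the enzyme genes carried H1foo peaks. An H1foo peak lay in or within 2 kb of 29 of 31 genes (93.5%), against 62.3% of all autosomal protein-coding genes. An AE4 peak did so at 24 of 31 (77.4%), against 48.4% of all. Every gene with an AE4 peak also had an H1foo peak, so 24 genes had both (44.4% of all genes), 5 had H1foo alone (17.9% of all), none had AE4 alone (3.97% of all), and 2 had neither (33.7% of all). The 5 with H1foo alone were Kdm1b, Kdm3a, Kdm5a, Kdm5b and Setd2. The 2 with neither were Kdm4d and Kmt2e.

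The enzyme genes are long, with a median of 50942 bp against 17491 bp for all genes, and 22 of 31 fell in the longest of 3 length classes. Each was therefore set beside the other genes of its length class and of its class among 10 of local gene density, which is the number of other genes in the 1 Mb centred on it. Weighted to the members, 78.1% of these 9141 other genes had an H1foo peak, which would be 24.2 of 31. For AE4 it was 67.1%, or 20.8 of 31. At the gene boundaries the members' shares at 2 kb lay close below those of such genes, which would be 17.5 of 31 for H1foo and 9.49 of 31 for AE4. A peak within 2 kb of either boundary was present at 17 of 31 for H1foo (54.8%, against 56.4% of the other genes and 47.2% of all genes). For AE4 it was present at 8 of 31 (25.8%, against 30.6% and 25.4%). With boundaries of 1 kb, 9 genes (29.0%) had an H1foo peak and 3 (9.68%) an AE4 peak, against 39.3% and 16.6% of all genes. With boundaries of 5 kb the shares were 80.6% for H1foo and 61.3% for AE4, against 57.7% and 41.0% of all genes. The other genes of the same classes were not compared at 1 kb and 5 kb. Set beside all genes, the side on which the members lay depended on the window. For H1foo at 2 kb it also depended on how a peak was counted. With only peaks centred in the window, the H1foo share at 2 kb was 41.9%, against 45.3% of all genes.

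**Figure D1:**
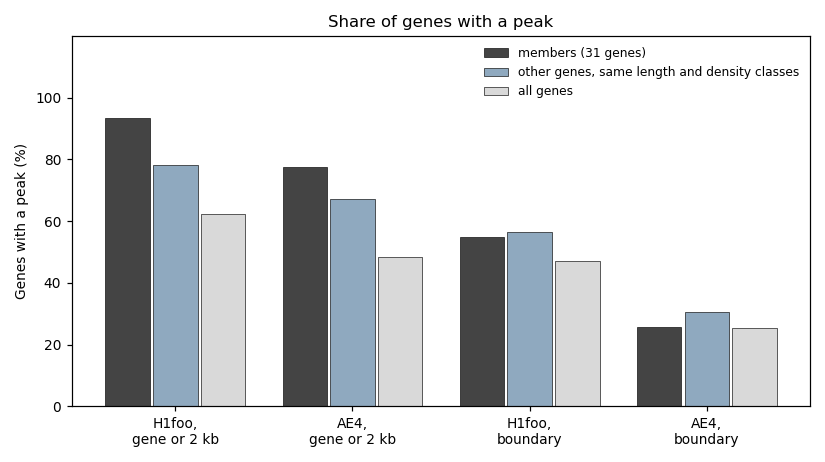
Share of genes with a peak, in percent, for the 31 enzyme genes, for other genes of the same length and gene density classes weighted to the members, and for all 20661 genes; bars carry no error because the lists have no replicates. The members stand at 93.5% for H1foo and 77.4% for AE4 over whole genes, and at 54.8% and 25.8% at boundaries.

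In all, the enzyme genes and their 2 kb flanks held 237 H1foo and 87 AE4 peaks. The ratio of 2.72 compares with 2.15 over the windows of all genes, and the 2 lists differ in length. Of the 237 H1foo peaks, 50 (21.1%) overlapped an AE4 peak, against 25.6% of those in the windows of all genes. Of the 87 AE4 peaks, 50 (57.5%) overlapped an H1foo peak, against 56.9%. The median score of the members' peaks was 73.7 for H1foo and 62.1 for AE4, against 75.03 and 65.08 in the windows of all genes. Peaks among the top 10% of scores of their list numbered 22 for H1foo (9.28%) and 10 for AE4 (11.5%). Overlaps and scores depended in part on Kdm4b and Kdm2b, the 2 members with the most H1foo peaks. Without them, a choice made after seeing the data, 25 of 163 H1foo peaks (15.3%) overlapped an AE4 peak. Of the 54 AE4 peaks then left, 26 (48.1%) overlapped an H1foo peak. Median scores were then 69.9 for H1foo and 59.9 for AE4. As peaks per 100 kb of gene and flanks, the 31 members had a median of 8.71 for H1foo and 3.74 for AE4, while all genes had 4.09 and 0. Other genes of the same length and density classes came closer. Their class medians, taken over the members, had a median of 7.47 for H1foo and 3.07 for AE4. In 17 of 31 genes (54.8%) the density exceeded the median of the other genes of the same length and density class, in each list. Of all genes, not weighted to the members' classes, 47.4% did so for H1foo and 40.7% for AE4. Where a class median is 0, only genes with a peak can exceed it, which lowers the share over all genes. Within their class the members had a median percentile of 69.7 for H1foo and 52.3 for AE4.

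**Figure D2:**
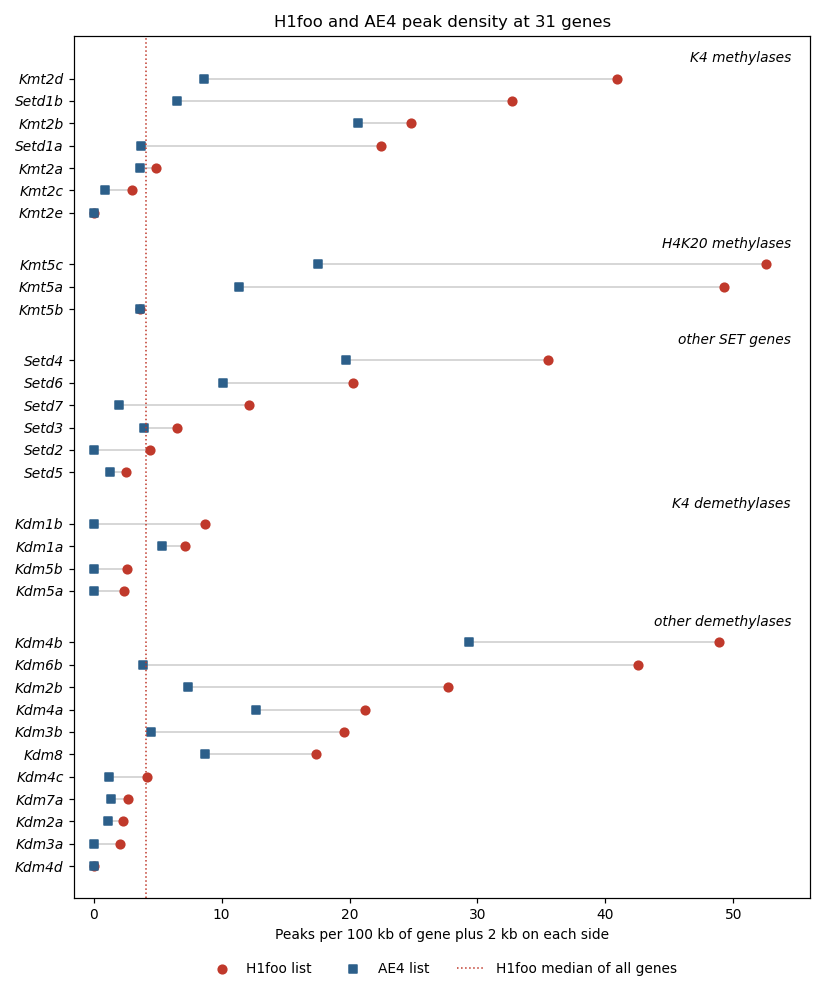
Peaks per 100 kb of gene plus 2 kb on each side, for H1foo (circles) and AE4 (squares), by enzyme class; each gene is 1 value per list. H1foo runs from 0 at Kmt2e and Kdm4d to 52.5 at Kmt5c, and the dotted line is the H1foo median of all genes, 4.09. That median is not matched for gene length or gene density.

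Among the writers of H3K4 methylation, close relatives differed widely. Kmt2d, which with Kmt2c encodes the main monomethylases of enhancers, had 19 H1foo and 4 AE4 peaks (chr15:98831669-98874077). Kmt2c, on chr5:25271795-25498855, had 7 and 2 although its gene is longer, at 227061 bp against 42409 bp. The H1foo density was 40.9 peaks per 100 kb at Kmt2d and 3.03 at Kmt2c. H1foo peaks covered 32.4% of the Kmt2d window and 1.19% of the Kmt2c window. The widest H1foo peak of any enzyme gene, at 2166 bp, lay near the 3′ end of Kmt2d (chr15:98833459-98835624, score 245.2), and it also lies in the window of the neighbour Prkag1.

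Kmt2b and Kmt2a encode the trithorax-type methylases of promoters. Kmt2b had 6 H1foo and 5 AE4 peaks, or 24.8 and 20.7 per 100 kb. Of these, 4 H1foo and 2 AE4 peaks also lay in the window of a neighbouring gene (Igflr1, U2af1l4 or Zbtb32). Kmt2a had 4 and 3 peaks, or 4.88 and 3.66 per 100 kb. Kmt2e, whose protein has a SET domain without established histone methylase activity, had no peak of either list over 71200 bp, while its flanks had 4.2 H1foo and 2 AE4 peaks per 100 kb. Setd1a and Setd1b encode the catalytic subunits of the COMPASS complexes that make most H3K4 trimethylation. Setd1b had 10 H1foo and 2 AE4 peaks, and its highest H1foo score, 238.6, was in the gene (chr5:123147375-123148996). Setd1a had 6 and 1, but 4 of its H1foo peaks and its AE4 peak also lay in the window of Hsd3b7.

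The H4K20 methylase genes included the members densest in H1foo. Kmt5c, which with Kmt5b makes di- and trimethylated H4K20, had 6 H1foo and 2 AE4 peaks in a gene of 7423 bp (chr7:4740092-4747514). That made 52.5 and 17.5 per 100 kb, and H1foo peaks covered 49.9% of its window. Its highest score, 302.8, belonged to a peak at chr7:4745400-4746920 that overlapped an AE4 peak. Kmt5a, the monomethylase of H4K20, had 13 and 3 peaks, or 49.3 and 11.4 per 100 kb, and no peak among the top 10% of scores of either list. Kmt5b had 2 and 2, or 3.64 per 100 kb for each list. Their flanks were alike, at 16.6 H1foo peaks per 100 kb for Kmt5a, 18.2 for Kmt5b and 20 for Kmt5c.

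Of the other Setd genes, Setd4 on chr16:93583457-93604791 carried the highest-scoring H1foo peak of all enzyme genes, 313.4 at chr16:93585146-93586830. It had 9 H1foo and 5 AE4 peaks, and 4 of the 5 AE4 peaks overlapped H1foo. At 35.5 and 19.7 per 100 kb it stood at the 97.0th and 98.6th percentile of its length and density class. Setd7, which methylates H3K4 and other proteins, had 6 and 1 peaks, Setd3, an actin histidine methylase, 5 and 3, and Setd6, a methylase of the NF-kB subunit RelA, 2 and 1. For Setd6 each of the 3 peaks also lay in the window of a neighbour (Ndrg4 or Cnot1). Setd2, the writer of H3K36 trimethylation, had 4 H1foo peaks with scores of at most 67.1 and no AE4 peak. Setd5 had 2 H1foo peaks and 1 AE4 peak, all at least partly within 2 kb of its 3′ boundary.

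The genes of the H3K4 erasers, Kdm1a (LSD1), Kdm1b, Kdm5a and Kdm5b, held 12 H1foo and 3 AE4 peaks together. Their median density was 4.86 for H1foo and 0 for AE4 per 100 kb, against 4.09 and 0 at all genes. None of these peaks overlapped the other list, and none was among the top 10% of scores of its list. The highest H1foo score was 74.5, in Kdm5a, against that list's median of 73.2, and the highest AE4 score was 74.8, in Kdm1a, against a median of 63.8. Kdm1a had 4 H1foo and 3 AE4 peaks, and 2 of the 4 also lay in the windows of Luzp1 or Tex46. Kdm1b, which in mouse oocytes acts in the setting of maternal imprints, had 4 H1foo peaks with scores of 51.0 to 64.0 and no AE4 peak. Its 8.71 H1foo peaks per 100 kb were above the 2.80 of its flanks. Kdm5a and Kdm5b had 2 H1foo peaks each, or 2.37 and 2.61 per 100 kb, below the 12.6 and 13.2 of their flanks.

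Kdm4b, an eraser of H3K9 and H3K36 methylation, had more peaks of both lists than any other enzyme gene. It lies on chr17:56325970-56403774 and had 40 H1foo and 24 AE4 peaks, all inside the gene and none in the window of another gene. That made 48.9 and 29.3 per 100 kb, at the 95.54th and 95.05th percentile of its class. H1foo peaks covered 37.5% of the window and AE4 peaks 16.9%. In each direction 16 of the peaks overlapped the other list. H1foo scores ran from 51.0 to 291.1 with a median of 87.8, and AE4 scores from 50.04 to 186.1 with a median of 75.1. The highest AE4 score of any enzyme gene, 186.1, lay at chr17:56348613-56349645 and that peak overlapped H1foo. The flanks of Kdm4b were the densest of any member, at 39.8 H1foo and 20.2 AE4 peaks per 100 kb.

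The other Kdm4 genes had far fewer. Kdm4a had 10 H1foo and 6 AE4 peaks, or 21.2 and 12.7 per 100 kb, and flanks of 21.8 and 10. Kdm4c had 7 and 2 in 163368 bp. Kdm4d, an H3K9 demethylase gene, had none of either, and its flanks had 0.60 and 0.20 per 100 kb. How well reads can be placed in this gene was not tested.

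Kdm2b and Kdm2a, both with a CXXC domain that binds unmethylated CG, also differed. Kdm2b, which brings a variant of Polycomb complex 1 to CpG islands, had 34 H1foo and 9 AE4 peaks (chr5:122870664-122989270). None lay within 2 kb of its boundaries, and 8 of the 9 AE4 peaks overlapped an H1foo peak. Kdm2a had 2 H1foo peaks and 1 AE4 peak in 82578 bp, or 2.31 and 1.16 per 100 kb, with 21.2 and 8.40 in its flanks. Kdm2b had 27.7 and 7.34 per 100 kb, with 21.6 and 7.20 in its flanks. The flanks of these 2 relatives thus had like densities, while the genes had not. Kdm4b and Kdm2b together held 74 of the 237 H1foo peaks (31.2%) and 33 of the 87 AE4 peaks (37.9%).

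Kdm3b and Kdm3a encode erasers of mono- and dimethylated H3K9. Kdm3b had 13 H1foo and 3 AE4 peaks, of which 2 H1foo peaks lay beyond the gene in the window of Reep2, among them its highest score of 219.4. Kdm3a had 1 H1foo peak of score 53.1 and no AE4 peak. Kdm6b, an H3K27 demethylase, had 11 H1foo peaks and 1 AE4 peak, or 42.5 and 3.87 per 100 kb, and no overlap between the lists. Of the 11, 5 also lay in the windows of Cyb5d1, Naa38, Tmem88 or Dnah2. Kdm7a, an eraser of H3K9 and H3K27 methylation, had 2 and 1. Kdm8, a JmjC gene, had 4 H1foo and 2 AE4 peaks. The 2 AE4 scores of Kdm8, 142.2 and 149.1, were both among the top 10% of that list, while none of its H1foo peaks was among the top 10% of the H1foo list.

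Density in the genes was set against the 250 kb beyond the 2 kb window on each side. For H1foo 14 of 31 genes (45.2%) were denser than their flanks, against 42.7% of all genes. For AE4 12 of 31 (38.7%) were, against 34.2%. The median flank density was 16.8 for H1foo and 7.20 for AE4 per 100 kb at the enzyme genes, and 5.40 and 2.40 at all genes. No matching for gene length or local gene density was made in these flank comparisons. Among members with flanks of 16.8 to 23 H1foo peaks per 100 kb, some windows were dense and others sparse. Kmt5c had 52.5 H1foo peaks per 100 kb with 20 in its flanks, and Setd2 had 4.44 with 23. Setd3 had 6.50 with 21.2, and Setd5 had 2.49 with 16.8. Members with flanks of at most 6.8 had at most 17.4 in the gene, while Kdm4b had 48.9 with 39.8 and Kmt2d had 40.9 with 28.2. How far gene density follows flank density over the members was not tested.

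**Figure D3:**
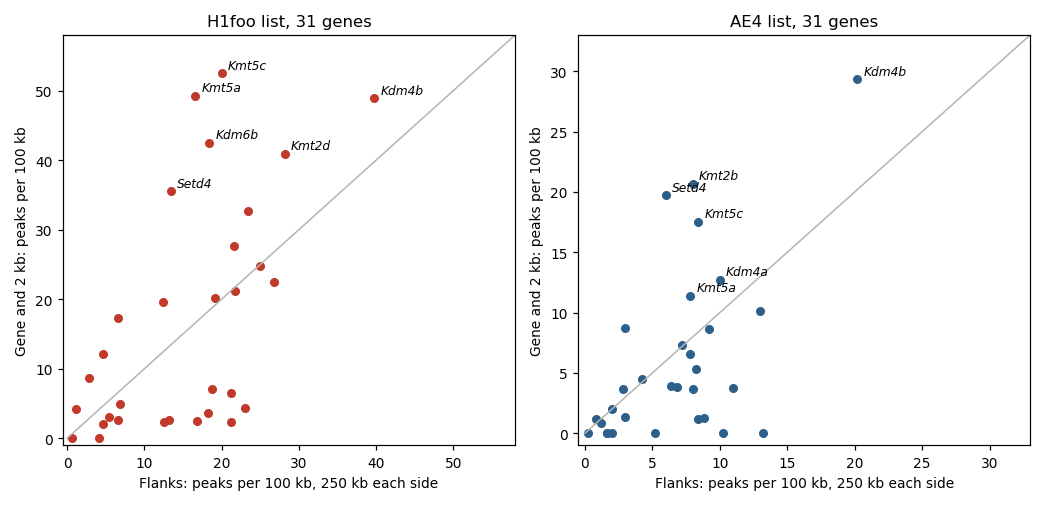
Peaks per 100 kb in each of the 31 genes and its 2 kb window (y axis) against the 250 kb on each side (x axis), for H1foo and AE4; the line marks equal density and the 6 densest genes are named. For H1foo 14 genes lie above the line and for AE4 12.

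Within genes of known strand, peaks were few at the 5′ end. The promoter table gives the strand of 23 members. It has no entry for Kdm2a, Kdm3b, Kdm4b, Kdm5a, Kdm6b, Kmt2b, Kmt2e and Setd1b. An H1foo peak lay within 2 kb of the 5′ boundary of 4 of 23 (17.4%, against 33.5% of 16456 genes with an entry), which were Kdm1a, Kdm4c, Kmt5a and Setd6. Near the 3′ boundary it was 10 of 23 (43.5%, against 36.9%). For AE4 it was 0 of 23 at the 5′ boundary (against 11.5%) and 6 of 23 at the 3′ boundary (26.1%, against 20.5%). The 6 were Kdm4a, Kdm8, Kmt5c, Setd1a, Setd5 and Setd6. Measured from RefSeq starts, an H1foo peak lay on the promoter window of 2 of 23 (8.70%, against 15.3%), within 1 kb of 3 (13.0%, against 27.2%) and within 5 kb of 13 (56.5%, against 47.7%). AE4 peaks lay on the window of 0 (against 2.83%), within 1 kb of 0 (against 6.71%) and within 5 kb of 6 (26.1%, against 28.6%). For Setd5 and Kmt2d the start in the table lies 27.7 and 2.87 kb inside the gene.

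Of the 141 H1foo peaks centred inside these 23 genes, 16 (11.3%) lay in the first of 5 equal parts of the gene and 42 (29.8%) in the last. Over all genes with an entry and at least 5 kb long the shares were 18.4% and 24.96%. Of the 49 AE4 peaks, 5 (10.2%) lay in the first part and 16 (32.7%) in the last, against 15.3% and 25.1%. Without Kdm2b, which has 34 of the 141, the H1foo shares were 10.3% and 31.8%. The promoters of the members are also rich in CG, with a median of 26 CG dinucleotides per window against 14 for all genes, and 12 of 23 were in the richest of 4 classes of windows, with 25 to 65 CG. In that class 25.8% of all genes and 1 of the 12 members had an H1foo peak within 1 kb of a start. The class with 4 to 13 CG had the highest share over all genes, 36.0%. The genes set beside the members at gene ends, starts and parts of genes were not matched for length. The parts of base composition and of gene length in the members' values were not tested.

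**Figure D4:**
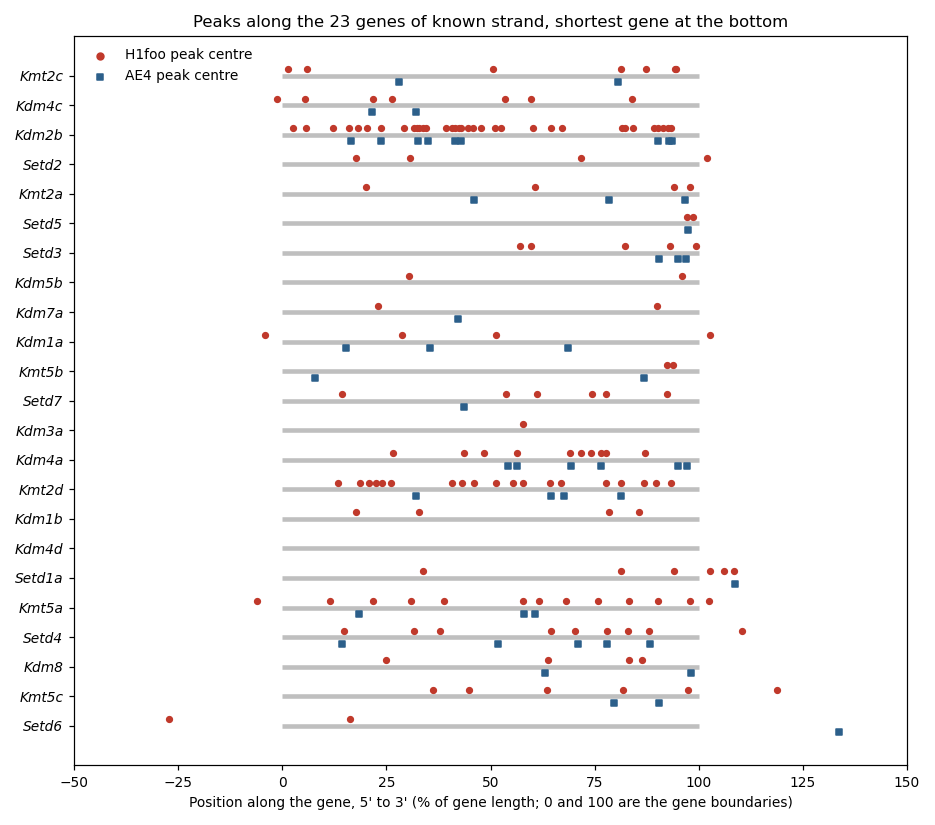
Centres of H1foo peaks (circles, above each line) and AE4 peaks (squares, below it) along the 23 genes of known strand, as a percentage of gene length from the 5′ to the 3′ boundary; points outside 0 to 100 lie in the 2 kb flanks. Kdm2b and Kmt2d are filled along most of their length, Kdm4d is empty, and no AE4 peak lies within 2 kb of a 5′ boundary.

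**Figure D5:**
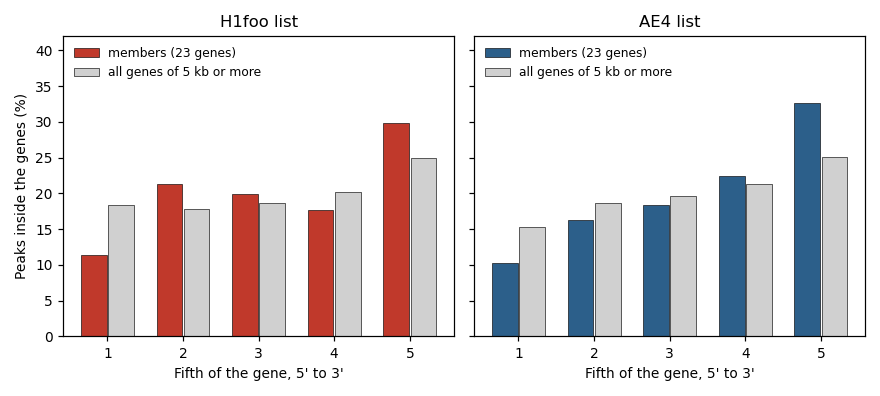
Share of the peaks inside genes, in percent, in 5 equal parts of the gene from 5′ to 3′, for the 23 members of known strand and for all genes of at least 5 kb with a promoter entry. The first part held 11.3% of the members' H1foo peaks and 10.2% of their AE4 peaks, and the last part 29.8% and 32.7%.

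Genes of the same pathways whose symbols lie outside the set were described from 6 lists with 93 genes, all of which matched. An H1foo peak was present at 79 (84.9%, against 62.3% of all genes) and an AE4 peak at 67 (72.0%, against 48.4%). Median densities were 7.75 and 2.97 per 100 kb, against 4.09 and 0 at all genes. These genes are also long, with a median of 31695 bp against 17491 bp, and they were not set beside genes of like length and gene density. Other lysine methylases had H1foo peaks at 16 of 22 and AE4 peaks at 13, and the densest in both lists was the H3K79 methylase gene Dot1l (47.3 and 18.03 per 100 kb). Ezh2, Nsd2, Setdb2, Setmar and Suv39h2 had neither. Other demethylase and JmjC genes had 10 and 7 of 11, led by Jmjd8 for H1foo (73.5) and Jmjd7 for AE4 (54.8), with neither at Riox1. Subunits of COMPASS had 13 and 8 of 14, led by Pagr1a in both lists (79.3 and 47.6), with neither at Bod1l. Genes of the CoREST complex, in which Kdm1a works, and of partner factors such as Gfi1b had 11 and 10 of 13. The densest were Hmg20b for H1foo (56.2) and Gfi1b for AE4 (18.1), and Hdac2 had neither. Arginine methylases had 8 and 8 of 9, led by Prmt1 (43.9) and Prmt7 (20.2), with neither at Prmt6. Lysine acetylases and deacetylases had 22 and 22 of 26, led by Kat2a (68.1) and Hdac5 (39.0), with neither at Hdac2, Hdac11 and Sirt1. The window of a short gene is mostly the 2 kb on either side, so a few peaks give it a high density.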

How the data were processed

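Bowtie 1.1.2 and the mm10 build are named in the submitters' processing notes, and MACS, without a version, is the peak caller per the file headers. The authors deposited a single list for each antibody, with a score for each peak; the lowest score is 50 and the files do not name its scale. The sources used here do not say how the 2 libraries of an antibody entered a list. Depth is unknown, and a deeper library can yield more peaks.

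Peak starts were converted to count from 1. Genes were the autosomal protein-coding entries of a RefSeq table on GRCm38.p6, whose assembled chromosomes share the coordinates of mm10; strand came from the RefSeq promoter table. There were 3 length classes and 10 gene density classes, and shares of other genes were computed over all genes of a class. Overlaps were computed with Python 3.11.15, pandas 2.3.3 and NumPy 2.4.6, and the code was tested on simulated data. Members, lists and the naming rule were chosen with earlier results of these data known. The rule named the densest and highest-scoring members of each list, those with 1 list or neither, and those with a peak on a promoter; values of other members were added beside their relatives after they were seen. No test was made, since the lists have no replicates.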

Additional observations from a re-analysis of the deposited data

How the results depend on the processing

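No paired analysis was possible because the deposited lists hold no value per library, and for the same reason no replicate could be left out. Of 80 recomputed values 56 stayed within the 95% exact binomial interval of a share, or within 1.5 times a count or density, and 24 moved further. The interval served only as a yardstick, since all settings use the same genes and peaks. It is wide for 31 members: an AE4 boundary share of 12.9%, with the higher-scoring peaks, counted as within it beside 25.8%. For shares of the 9141 other genes it is narrow, so small shifts counted as moved. Boundary shares followed the window: within 1 kb they were 29.0% for H1foo and 9.68% for AE4, against 39.3% and 16.6% of all genes, and within 5 kb 80.6% and 61.3%, against 57.7% and 41.0%. Set beside all genes, the members' boundary share thus changed side with the window. Without peaks that also lie in another gene's window the H1foo boundary share was 25.8%, against 35.4% of all genes. Fewer peaks gave lower values by construction. With peaks at or above the median score of each list the share of members with a peak was 74.2% for H1foo, 51.6% for AE4 and 48.4% for both, against 46.7%, 34.2% and 29.5% of all genes. The H1foo boundary share was then 35.5%, against 33.7% of all genes, the median densities were 3.90 and 0.597 per 100 kb, and the peaks numbered 119 and 40. With the H1foo list cut to the length of the AE4 list, the H1foo values were 74.2% of members, 35.5% at boundaries, a median of 3.90 per 100 kb and 116 peaks, against 45.9%, 33.1% and a median of 0 at all genes. Without Kdm4b and Kdm2b, a choice made after seeing the data, 54 AE4 peaks were left. The share of other genes with a peak depended on the classes. With quintiles of both length and gene density it was 78.7% for H1foo and 68.0% for AE4. It was 71.8% and 60.6% with length alone, and 64.0% and 49.6% with gene density alone. With density in windows of 500 kb it was 76.4% and 65.1%. The members' 93.5% and 77.4% stood above each of these.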

Other observations

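Of the family's genes outside the autosomes, Kdm5c and Kdm6a on chromosome X and Kdm5d on chromosome Y had no peak of either list within 2 kb. Among 966 protein-coding genes of chromosome X, 6.21% had an H1foo peak and 3.93% an AE4 peak. The autosomal pseudogene Kdm4dl also had none.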
